A study of Mus musculus with 56 samples.

Results

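Hopx-expressing tumor cells were compared with the other tumor cells of the same mouse. Cells were selected on the deposited level of Hopx itself: 19 of 50 cells had Hopx at 1 TPM (the deposited unit, a gene's share of all transcripts scaled for length) or more and are called Hopx-positive, and the other 31 had Hopx below 1 TPM and are called Hopx-negative. Both groups came from 1 male ApcMin/+ mouse, which carries a truncating allele of the Wnt pathway inhibitor Apc and develops intestinal tumors. It drank 2% dextran sulfate sodium, which injures the colonic lining, for 5 days from 10 weeks of age, and 3 colon tumors were taken at 12 weeks and pooled. Living cells (DAPI-) that carried Epcam and Cd24 and lacked Cd31 and Cd45 were sorted singly, their cDNA was made by Bead-seq, and only cDNA in which a PCR of 32 cycles found Lgr5 was sequenced. All cells of both groups had therefore passed an Lgr5 selection, and neither an untreated nor an Apc wild-type cell entered the comparison. Cells of 1 mouse are not replicates of a condition, so all values below describe these cells, with no test and no p-value.

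Hopx encodes a small homeodomain protein that lacks the residues other homeodomains use to bind DNA. In the mouse heart it acts through serum response factor (SRF), the factor that drives actin and smooth muscle genes, and through histone deacetylases. In the mouse intestine Hopx marks cells just above the crypt base that divide slowly and can give rise to the Lgr5-expressing stem cells, and Lgr5-expressing cells can in turn give rise to Hopx-expressing ones. In human colorectal cancers HOPX is often silenced by promoter methylation.

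The Hopx gene (ENSMUSG00000059325) is protein coding and lies on the minus strand at chr5:77086988-77115121 (GRCm38, GENCODE M21). The deposited table holds 1 value per gene, so transcripts from its separate start sites are pooled and the values do not tell which start a cell used. The 2 RefSeq promoter windows of Hopx (GRCm38.p6, 250 bases before to 50 bases after the start, both on the minus strand) are shown because SRF is the best known partner of the protein and its binding motif was looked for in them. Capitals mark a CArG box, the SRF motif, which was searched on both strands.
Upstream start, chr5:77115074-77115373: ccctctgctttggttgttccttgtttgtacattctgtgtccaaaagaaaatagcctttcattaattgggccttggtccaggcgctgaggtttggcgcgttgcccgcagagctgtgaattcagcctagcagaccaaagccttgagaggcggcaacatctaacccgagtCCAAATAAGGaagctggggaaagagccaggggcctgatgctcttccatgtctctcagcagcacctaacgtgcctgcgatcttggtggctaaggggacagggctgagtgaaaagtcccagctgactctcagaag
Downstream start, chr5:77095218-77095517: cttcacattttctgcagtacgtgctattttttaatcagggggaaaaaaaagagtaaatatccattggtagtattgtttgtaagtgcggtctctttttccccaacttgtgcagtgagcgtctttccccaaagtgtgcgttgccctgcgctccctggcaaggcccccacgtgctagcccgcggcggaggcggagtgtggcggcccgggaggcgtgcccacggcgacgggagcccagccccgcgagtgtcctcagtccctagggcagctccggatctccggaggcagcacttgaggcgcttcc
The upstream window held 1 CArG box, which begins 83 bases before the start, and the downstream window held none of these letter patterns. Among 32851 RefSeq promoter windows of the same length, 535 (1.63%) held a CArG box. A match is a description of the letters and says nothing about binding in these cells. The annotated antisense gene Hopxos lies within Hopx on the other strand and was not analysed here. The sources used here do not state whether counting used strand, so reads of such a transcript could be counted as Hopx.

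Hopx was seen in 38% of cells (exact Clopper-Pearson 95% interval 24.7% to 52.8%, which covers counting error only). Among the 19 Hopx-positive cells the lowest value was 1.11 TPM, the median 9.21 TPM and the highest 38.3 TPM. Among the 31 Hopx-negative cells the median was 0 and the highest 0.885 TPM, and 26 of them were listed at 0. The groups do not overlap because Hopx chose them. Within the positive cells the level was graded: 9 cells had 10 TPM or more, and the mean was 12.5 ± 11.2 TPM (SD over 19 cells). Few cells lay near the threshold. The Hopx-negative cell at 0.885 TPM was an average of a pair of near-identical libraries with 0.77 and 1 TPM, and the next cell below it had 0.32 TPM. TPM keep no read depth, so a value of 0 is read only as listed at 0.

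**Figure D1:**
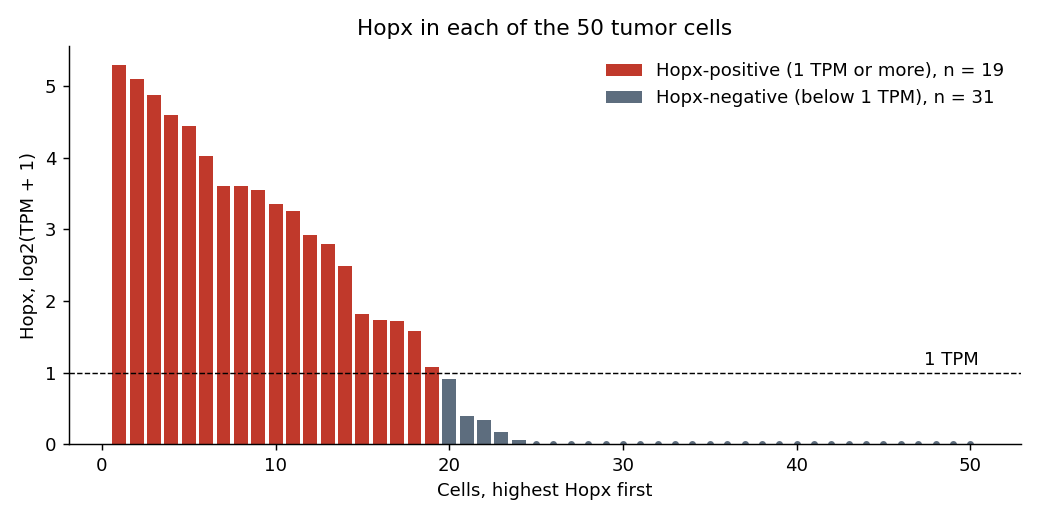
Hopx in each of the 50 cells, as log2(TPM + 1) on the vertical axis, with cells ordered from the highest value. Red bars are the 19 Hopx-positive cells, grey bars and points are the 31 Hopx-negative cells, and the dashed line marks 1 TPM; the positive cells run down in steps from 38.3 to 1.11 TPM, and 26 cells are listed at 0.

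Hopx-positive cells were spread over the sequencing indexes, though unevenly. They made up 13 of 32 cells (40.6%) on the lower i7 side (N704 to N707) and 6 of 18 cells (33.3%) with N708 to N710. By i5 index they made up 7 of 26 cells (26.9%) with N502 to N505 and 12 of 27 (44.4%) with N506 to N517, where the 3 averaged cells with a library on each side counted on both. Single i7 indexes ranged from 0 of 6 cells (N709) and 1 of 8 (N705) to 4 of 8 (N704, N706 and N707). The 6 cells of N709 were also the 6 averaged cells. All averaged cells were therefore Hopx-negative and lay on the N708 to N710 side, while every Hopx-positive cell was a single library. The part of the index imbalance and of the averaging in the differences below was not tested. Each named gene of the main comparison was required to have the same direction in both i7 sides and both i5 sides.

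The number of genes at 1 TPM or more was similar at the centre of the groups and differed at the low end. Hopx-positive cells had 4940 genes at the least, 5752 at the median and 7051 at the most. Hopx-negative cells had 1316, 5971 and 7234. The 3 cells with the fewest genes (1316, 3151 and 3935) were all Hopx-negative, while every other cell had at least 4940. One of these 3 cells also carried the highest Defa24, a Paneth cell defensin gene, at 239134 TPM. Values without these cells stand beside several of the results that they move.

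The sort left the same imprint on both groups. Epcam and Cd24a, the genes of both positive sort markers, were seen in 19 of 19 Hopx-positive and 31 of 31 Hopx-negative cells. Pecam1 and Ptprc, which encode Cd31 and Cd45, were at or above 1 TPM in 0 of 50 cells. Lgr5, on which the cDNA was selected, was seen in 17 of 19 Hopx-positive cells (89.5%) and 21 of 31 Hopx-negative cells (67.7%).

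Across the 9165 genes seen in 20% of cells, Hopx left out, the groups differed little in relation to the spread among cells. The mean of log2(TPM + 1) was at least 1 higher in Hopx-positive cells for 330 genes (3.6%) and at least 1 lower for 249 genes (2.72%). This limit is a size and not a test. All differences lay between -2.49 and 2.73, with a median of 0.06 and an SD over genes of 0.52, and 55.6% of genes were above 0. Not one of the 9165 genes separated the groups: for each, the ranges of the positive and negative cells overlapped. Only 7 genes were higher and 1 was lower by as much as the pooled SD over cells, and the largest ratio was 1.22, for Vps41, a subunit of the vesicle-tethering HOPS complex (a gene named after its values were seen, with a difference of 0.87).

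The balance between higher and lower genes depended on the 3 Hopx-negative cells with few genes. Without these cells, 212 genes were at least 1 higher and 461 at least 1 lower in Hopx-positive cells, and the median difference was -0.08. Of the 330 higher genes 204 remained past 1, and of the 249 lower genes 244 remained. Centring each cell on its median gene gave 415 higher and 191 lower, so 68.5% of the genes past 1 were higher, against 57.0% with the values as deposited and 31.5% without the 3 cells. Adjusting all 50 cells for the number of genes per cell gave 333 higher and 245 lower, or 57.6% higher. No direction of the transcriptome as a whole can be read from these counts.

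**Figure D2:**
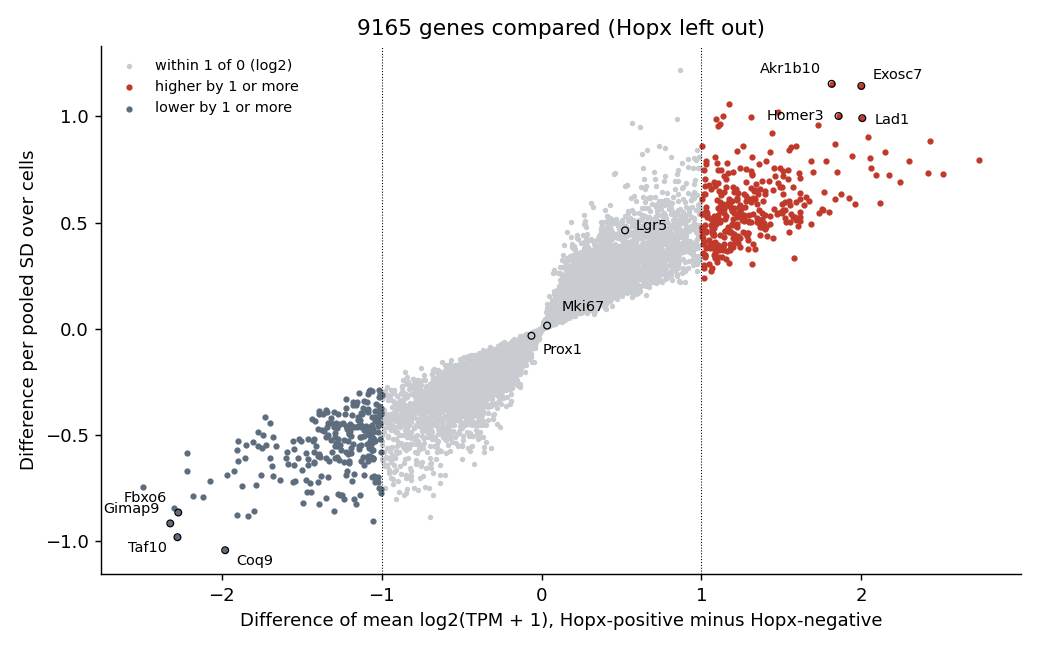
Each point is 1 of 9165 genes. The horizontal axis is the difference of mean log2(TPM + 1), Hopx-positive minus Hopx-negative, and the vertical axis the same difference divided by the pooled SD over cells; 330 genes (red) are at least 1 higher and 249 (grey blue) at least 1 lower, and nearly all lie within 1 pooled SD of 0.

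The profiles of the Hopx-positive cells did not lie closer to each other than to the rest. Pearson's r between 2 cells had a median of 0.582 over the 171 pairs of Hopx-positive cells. It was 0.585 over the 589 mixed pairs and 0.593 over the 465 pairs of Hopx-negative cells. The cell with the highest r was Hopx-positive for 0 of 19 positive and 1 of 31 negative cells. All 6 averaged cells were Hopx-negative and entered only the mixed and negative pairs, and the part of averaging in these values was not tested. The first principal component took 8.88% of the variance and the second 5.37%, and the positive cells were scattered among the negative ones on both. Beyond 100 on the first component lay 3 cells, which were the 3 Hopx-negative cells with few genes.

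**Figure D3:**
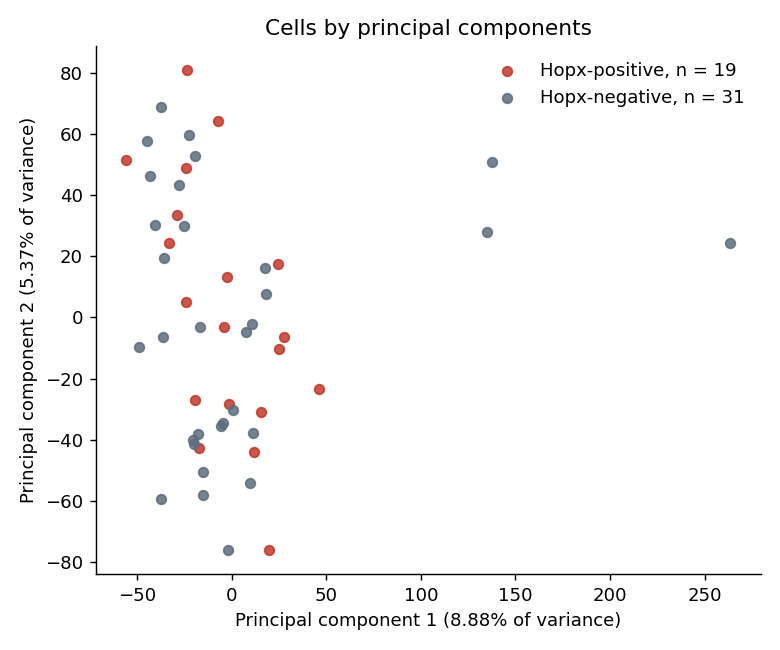
Cells placed by the first and second principal component of log2(TPM + 1) over the compared genes, with 19 Hopx-positive cells in red and 31 Hopx-negative cells in grey. Red points lie throughout the main body of cells, and the 3 points far to the right are Hopx-negative cells with few genes.

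Among genes past 1 with the same sign on all index sides, the 12 with the largest positive difference per pooled SD included Exosc7 and Mtrex, which act in RNA decay, and Wdhd1 and Wrnip1, which act in replication. Exosc7 (ENSMUSG00000025785, chr9:123113215-123136129, plus strand) encodes a subunit of the RNA exosome, which trims and degrades RNA. It had 0 TPM at the lowest, 19.6 at the median and 43.8 at the highest in Hopx-positive cells, against 0, 0.93 and 63.6 TPM in Hopx-negative cells. It was seen in 17 of 19 positive and 15 of 31 negative cells, and the means of log2(TPM + 1) were 3.72 ± 1.54 in Hopx-positive and 1.72 ± 1.86 in Hopx-negative cells (SD over 19 and 31 cells), a difference of 2.00. Most positive cells were therefore in the upper part of a range that both groups shared. Mtrex, the helicase that feeds RNA to the nuclear exosome, was seen in 13 of 19 positive and 10 of 31 negative cells, with a difference of 1.10. Wdhd1, an adaptor of the replication machinery, was seen in 10 of 19 positive and 6 of 31 negative cells, with a difference of 1.31. Wrnip1, an ATPase that acts at stalled replication forks, was seen in 16 of 19 positive and 20 of 31 negative cells, with a difference of 1.73. For Wrnip1 the difference was 2.49 on the lower i7 side (N704 to N707) but 0.18 on the upper one (N708 to N710).

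Lad1 (ENSMUSG00000041782, chr1:135818598-135833342, plus strand) encodes ladinin, a component of the filaments that anchor epithelium to its basement membrane. It ran from 14.9 TPM through a median of 65.2 to 143 TPM in Hopx-positive cells, against 0, 23.8 and 122 TPM in Hopx-negative cells. All 19 positive cells and 23 of 31 negative cells showed it, and the difference was 2.01, or 1.60 without the 3 cells with few genes. Below 1 TPM lay 8 Hopx-negative cells and 0 Hopx-positive ones.

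Akr1b10 (ENSMUSG00000061758, chr6:34384218-34396950, plus strand) encodes an aldo-keto reductase, an enzyme family that reduces aldehydes. It was 0 at the lowest, 1.4 at the median and 35.4 TPM at the highest in Hopx-positive cells, against 0, 0 and 20.8 TPM in Hopx-negative cells. It was seen in 10 of 19 positive cells (52.6%) and 4 of 31 negative cells (12.9%), and the difference was 1.81 with all cells and 1.86 without the 3 cells with few genes. Its close paralogs share sequence, so its reads are uncertain.

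The other genes that the naming rule placed among the 12 highest were of mixed function. Homer3, a scaffold protein of signaling complexes, was seen in 13 of 19 positive and 6 of 31 negative cells, with a difference of 1.86. Creb3l2, a membrane-bound transcription factor released by stress of the endoplasmic reticulum, was seen in 15 of 19 positive and 12 of 31 negative cells, with a difference of 1.17. Ptpn2, a phosphatase that quenches JAK-STAT signaling, was seen in 16 of 19 positive and 16 of 31 negative cells; its difference of 1.09 became 0.96 without the 3 cells with few genes. Ankrd27, a regulator of endosomal traffic, differed by 1.13, Abhd15 by 1.12 and D17H6S53E by 1.48. The last was seen in 9 of 19 positive and 2 of 31 negative cells, with a highest value of 155 TPM in a positive cell. Of the 12 genes, 11 remained at least 1 higher without the 3 cells, Ptpn2 being the exception.

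Genes lower in Hopx-positive cells were mostly genes listed at or near 0 in most positive cells and in fewer negative cells. Coq9 (ENSMUSG00000031782, chr8:94838321-94854895, plus strand) encodes a protein needed to make coenzyme Q, the electron carrier of the respiratory chain. It had 0, 0.09 and 21.9 TPM (lowest, median and highest) in Hopx-positive cells, against 0, 12.2 and 60.9 TPM in Hopx-negative cells. It was seen in 6 of 19 positive cells (31.6%) and 23 of 31 negative cells (74.2%), with means of 1.18 ± 1.66 in Hopx-positive and 3.16 ± 2.03 in Hopx-negative cells (SD, same cells) and a difference of -1.98. This was the lowest difference per pooled SD in the data, at -1.04.

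Taf10 (ENSMUSG00000043866, chr7:105739393-105744361, minus strand), a subunit of the general transcription factor TFIID, had 0, 0 and 65.6 TPM in Hopx-positive cells, against 0, 22.9 and 105 TPM in Hopx-negative cells. It was seen in 7 of 19 positive and 22 of 31 negative cells, with a difference of -2.28. Gimap9 (ENSMUSG00000051124, chr6:48676129-48679114, plus strand), a GTPase of a family best known in lymphocytes, had 0, 0 and 35.2 TPM in Hopx-positive cells, against 0, 4.81 and 289 TPM in Hopx-negative cells. It was seen in 2 of 19 positive and 17 of 31 negative cells, with a difference of -2.32, while the lymphocyte genes Ptprc and Cd3e were below 1 TPM in all 50 cells.

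The other lower genes again had several roles. Vkorc1, which recycles vitamin K, was seen in 2 of 19 positive and 16 of 31 negative cells (difference -2.30). Fbxo6, a ubiquitin ligase subunit that recognises glycoproteins, was seen in 5 of 19 positive and 19 of 31 negative cells (difference -2.27). Tpp1, a lysosomal peptidase, was seen in 10 of 19 positive and 26 of 31 negative cells (difference -1.80), and Hist1h2bc, a histone H2B gene of a multigene family, in 13 of 19 positive and 29 of 31 negative cells (difference -1.90). Dync1h1, the motor chain of cytoplasmic dynein, differed by -1.30, Itgb4, the hemidesmosome integrin, by -1.16, Prkar2a, a regulatory subunit of protein kinase A, by -1.05, and Kctd6, a cullin adaptor, by -1.39. Ugt2b34, a glucuronosyltransferase, was seen in 8 of 19 positive and 24 of 31 negative cells (difference -1.83). Without the 3 cells with few genes, 12 of these 12 genes stayed at least 1 lower. Several of the named genes overlap another annotated gene on the other strand that the table also holds, and their reads are uncertain for that reason. They include Coq9 with Ciapin1, Taf10 with Ilk, Homer3 with Ddx49, Mtrex with Plpp1 and Abhd15 with Taok1. Among genes named below they include Stub1 with Jmjd8, Bin3 with Ccar2, Duoxa2 with Duoxa1 and Avil with Tsfm. The stem cell and tumor genes Lgr5, Prox1 and Lrig1 overlap A930009A15Rik, Prox1os and Slc25a26 in the same way. Ceacam1 with 4732471J01Rik and Gsto1 with Cfap43 are further such pairs.

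**Figure D4:**
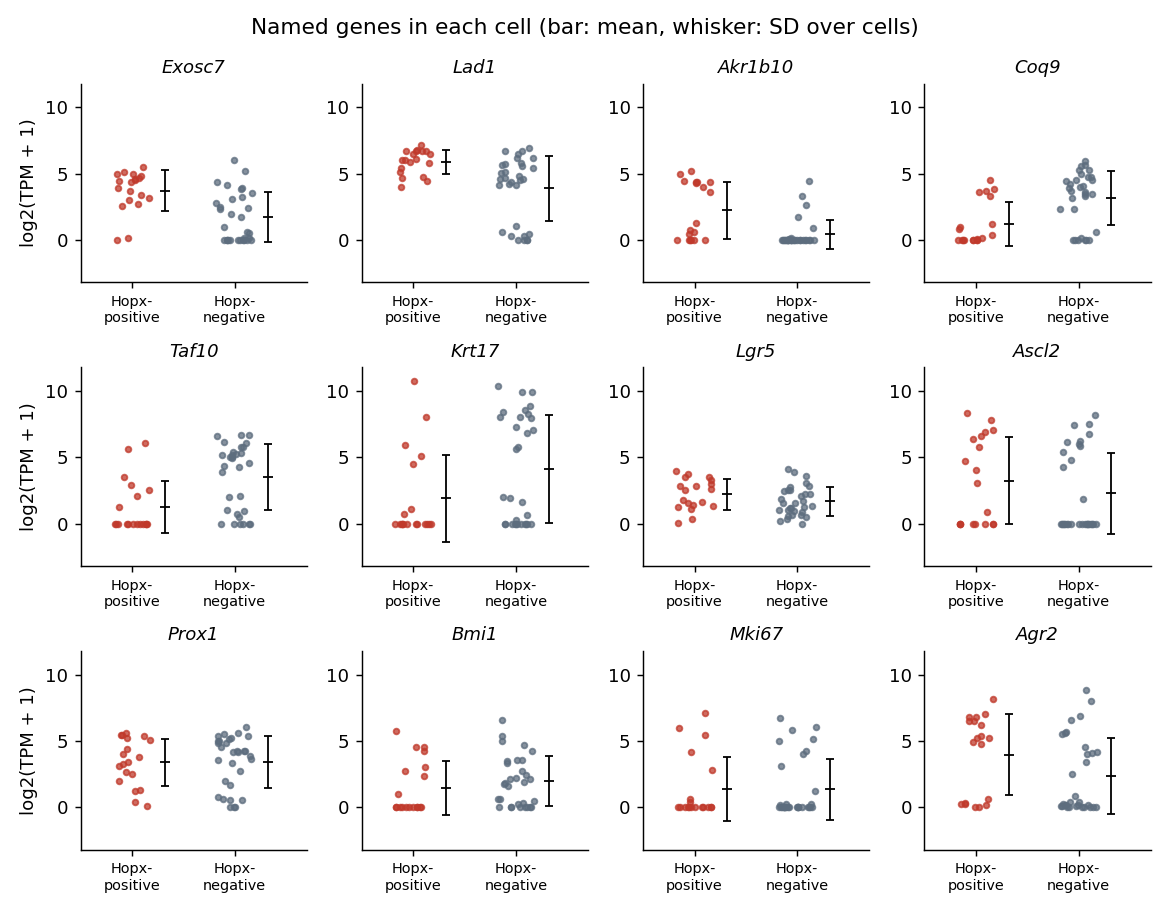
Values of 12 named genes in each cell as log2(TPM + 1), with Hopx-positive cells on the left and Hopx-negative cells on the right of each panel; the black bar is the mean and the whisker the SD over cells. The groups overlap in every panel, and a gene such as Coq9 or Akr1b10 differs in how many cells lie near 0 more than in the level of the cells that show it.

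Across all 50 cells, the genes whose level went most with Hopx were named by Spearman's rho with the same sign in both i7 groups. As Hopx was used to choose the cells, these are descriptions over 50 cells that share a mouse and index sets. Over the 9165 genes rho ran from -0.49 to 0.56, with 27 genes above 0.4 and 10 below -0.4. Ppp1cc, a catalytic subunit of protein phosphatase 1, had the highest rho at 0.56. It ran from 32.1 TPM through a median of 73.6 to 149 TPM in Hopx-positive cells, against 0, 31.7 and 104 TPM in Hopx-negative cells, and the difference of 1.44 became 1.01 without the 3 cells with few genes. Within the 19 Hopx-positive cells alone its rho with Hopx was 0.08. Prkab1, a subunit of the energy sensor AMPK, had a rho of 0.48 and Stub1, a co-chaperone ubiquitin ligase, 0.46. For both, the rho within the positive cells was smaller, at 0.15 and -0.01. Their differences of 1.32 and 1.42 were 0.97 and 0.92 without the 3 cells.

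Atad3a, an ATPase of the mitochondrial inner membrane, had a rho of 0.48 over 50 cells and 0.63 over the 19 Hopx-positive cells. It was seen in 17 of 19 positive and 20 of 31 negative cells. Over the same cells 1700017D01Rik had 0.47 and 0.56, Crybb2, a crystallin gene, 0.47 and 0.51, Bin3, a membrane-bending protein, 0.47 and 0.44, and Akr1b10 0.47 and 0.39. The Crybb2 difference was only 0.52, and 0.24 without the 3 cells with few genes. At the other end stood Gimap9 at -0.49, followed by Tpp1 and the cullin adaptor Kbtbd2 (both -0.43) and the actin-binding Nexn (-0.43). Taf10, Ccdc28b, Vkorc1 and Dync1h1 came next (-0.42, -0.42, -0.41 and -0.41). Within the 19 Hopx-positive cells alone, rho had the other sign for Gimap9 (0.16), Nexn (0.20) and Ccdc28b (0.39). For Tpp1, Kbtbd2, Taf10, Vkorc1 and Dync1h1 it was -0.21, -0.25, -0.11, -0.09 and -0.24 in those cells.

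Of 14 measured stem cell genes of the crypt base, 0 were past 1 in either direction, beside 3.6% higher and 2.72% lower over all genes, and 8 were above 0, beside 55.6% of all genes. At these shares the counts are near the background. The median difference was 0.19, beside 0.06 over all genes, and 0.10 without the 3 cells with few genes, when all genes had -0.08. Lgr5, the receptor that marks crypt base stem cells, had 0.02, 4.67 and 15.1 TPM in Hopx-positive cells, against 0, 1.9 and 16.2 TPM in Hopx-negative cells. Its difference of 0.52 was positive in both i7 and both i5 sides and was smaller than the SD within either group (1.17 in positive and 1.10 in negative cells). Ascl2, the transcription factor of the Lgr5 program, was seen in 10 of 19 positive and 12 of 31 negative cells (difference 0.97). Ephb3, a receptor of the lower crypt, had a difference of -0.87, which was -1.19 without the 3 cells, and it was -2.13 on the lower i7 side and 1.74 on the upper one. Sox9, a crypt transcription factor, had -0.77, with -1.33 on the lower i7 side and 0.14 on the upper one, and Olfm4, which small intestinal stem cells express, was below 1 TPM in all 50 cells.

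Of 13 measured markers of reserve or slow-cycling cells, 0 were past 1 in either direction, again near the 3.6% and 2.72% of all genes. The median was 0.09, or -0.21 without the 3 cells with few genes. Bmi1, a Polycomb protein and another marker of reserve stem cells, was seen in 8 of 19 positive and 18 of 31 negative cells (difference -0.48). Lrig1, an inhibitor of EGF receptors and a stem cell marker, was seen in 10 of 19 positive and 9 of 31 negative cells (difference 0.45), and Tert, the catalytic subunit of telomerase, in 2 of 19 positive and 1 of 31 negative cells. Prox1, a homeodomain transcription factor induced by Wnt signaling in colon tumors, had nearly the same mean in both groups, 3.41 ± 1.79 in Hopx-positive and 3.47 ± 1.96 in Hopx-negative cells; its difference of -0.06 was -0.27 without the 3 cells. Clu, which marks regenerating crypt cells, differed by -0.13 (-0.36 without the 3 cells), and Ly6a, a gene of the repairing epithelium, was seen in 5 of 19 positive and 7 of 31 negative cells.

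**Figure D5:**
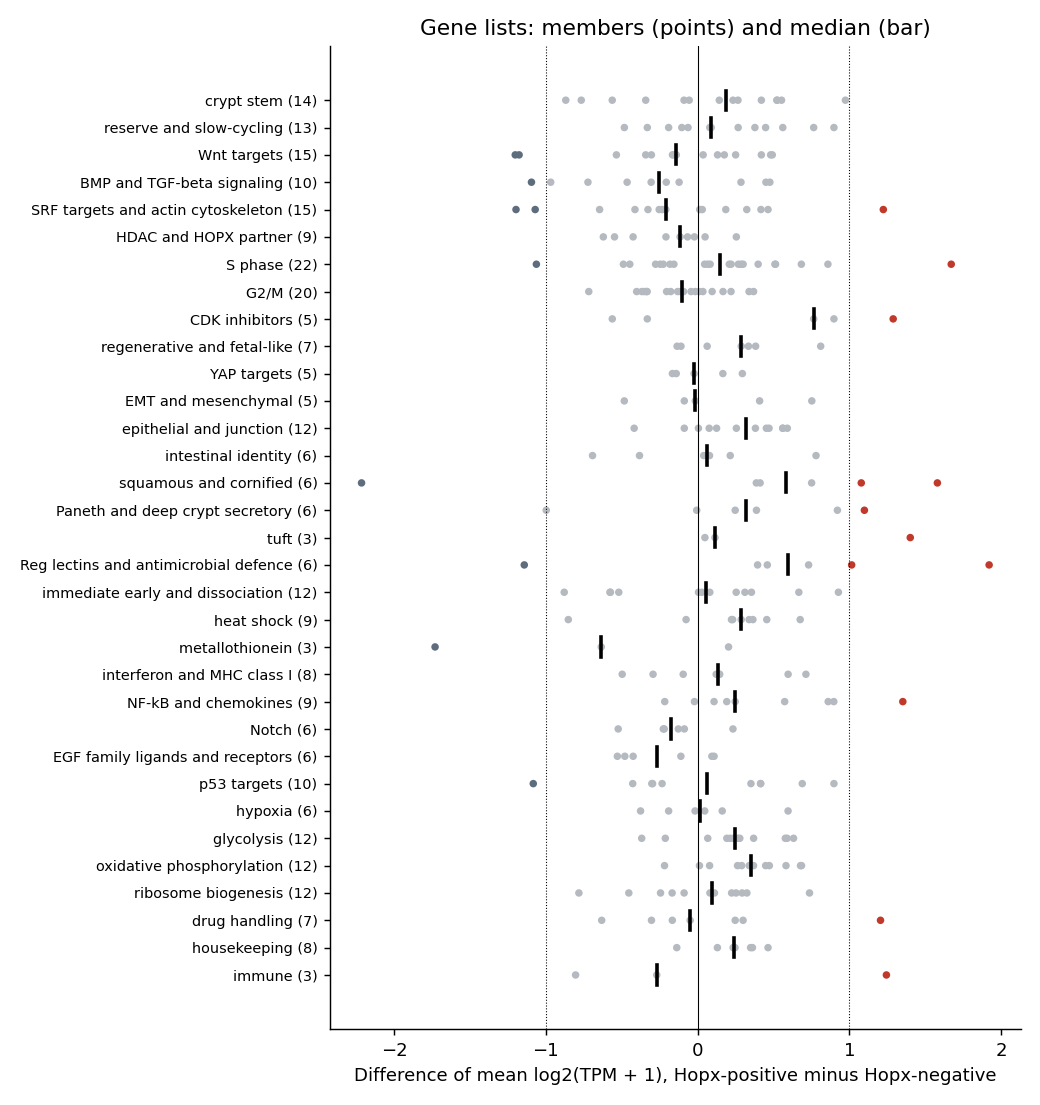
Differences of mean log2(TPM + 1), Hopx-positive minus Hopx-negative, for the members of each gene list with at least 3 measured members (points; number in brackets) and their median (black bar). Dotted lines mark differences of 1; most members lie between them, and single members such as Krt17 (-2.21) and Duoxa2 (1.92) lie outside.

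Of 7 CDK inhibitor genes, which restrain the cell cycle, a median of 3 were seen in Hopx-positive and 2 in Hopx-negative cells, and their differences pointed both ways. Cdkn2b, an inhibitor of CDK4 and CDK6 that TGF-beta induces, was seen in 10 of 19 positive and 11 of 31 negative cells (difference 1.29). Cdkn1a, the p53 target p21, had medians of 341 TPM in positive and 118 TPM in negative cells, with a difference of 0.90 that was 2.08 on the lower i7 side and -1.39 on the upper one. Cdkn1b (p27) differed by 0.76 (0.50 without the 3 cells with few genes), and Cdkn1c (p57) by -0.33 (-0.50). Of the 5 measured inhibitors 1 was past 1, beside 3.6% higher and 2.72% lower over all genes. The median was 0.76 with all cells and 0.50 without the 3 cells with few genes, when all genes had 0.06 and -0.08.

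Hopx-positive cells included cycling cells. Of 22 S phase genes a median of 9 were seen per positive cell (3 to 22) and 8 per negative cell (2 to 22). Of 30 G2/M genes a median of 5 were seen in both groups, and cells with 15 or more of them numbered 3 of 19 Hopx-positive and 7 of 31 Hopx-negative. Mki67, a marker of dividing cells, was seen in 5 of 19 positive and 9 of 31 negative cells, with a difference of 0.03. Top2a, the topoisomerase that untangles chromosomes in mitosis, was seen in 6 of 19 positive and 12 of 31 negative cells. Of the S phase genes, Tyms, which makes thymidylate, was higher (difference 1.67) and Mcm2, a subunit of the replicative helicase, lower (difference -1.06), though the Mcm2 difference was 0.40 on the upper i7 side. The medians were 0.15 for S phase and -0.10 for the 20 measured G2/M genes, and 0.05 and -0.29 without the 3 cells with few genes. Of the G2/M genes 0 were past 1, beside 3.6% and 2.72% of all genes.

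Of 9 genes for histone deacetylases and their complexes, the known partners of HOPX, 0 were past 1, beside 3.6% higher and 2.72% lower over all genes. Their median was -0.12 with all cells and -0.41 without the 3 cells with few genes, when all genes had -0.08. Hdac2, the deacetylase that binds HOPX in the mouse heart, was seen in 14 of 19 positive and 25 of 31 negative cells (difference -0.62). Srf itself was seen in 18 of 19 positive and 30 of 31 negative cells and differed by 0.32. Of 15 SRF targets and actin genes, 1 was higher and 2 lower by 1, beside 3.6% and 2.72% of all genes. Tagln2, an actin-bundling protein, was higher by 1.22 (0.94 without the 3 cells with few genes). Acta2, smooth muscle actin, and Flna, an actin crosslinker, were lower (differences -1.20 and -1.07). Without the 3 cells 0 members were higher and 3 lower by 1, with Myl9 added to the lower ones. On the upper i7 side the Acta2 difference was 0.17. The median of this list was -0.21 and became 0.70 where 10 TPM of Hopx was asked for.

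Of 15 Wnt targets, 0 were higher and 2 lower by 1, beside 3.6% and 2.72% of all genes. Wnt6, a Wnt ligand, was seen in 4 of 19 positive and 14 of 31 negative cells (difference -1.20), and Sp5, a direct target of beta-catenin, in 10 of 19 positive and 20 of 31 negative cells (difference -1.18). Axin2, Notum and Rnf43, feedback inhibitors of the pathway, differed by -0.34, -0.14 and 0.42; without the 3 cells with few genes Notum had -0.53 and Rnf43 0.20. Of 10 measured genes of BMP and TGF-beta signaling, Gdf11, a ligand of that family, was lower (difference -1.09) and seen in 6 of 19 positive and 15 of 31 negative cells. The medians were -0.14 for Wnt targets and -0.26 for BMP and TGF-beta signaling, and -0.34 and -0.40 without the 3 cells.

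Genes of surface defence and of stratified epithelium varied strongly from cell to cell in both groups. Krt17, a keratin of injured and stratified epithelium, was seen in 6 of 19 positive and 18 of 31 negative cells (difference -2.21). Its median was 0 in Hopx-positive and 3.07 TPM in Hopx-negative cells, its highest value 1755 TPM in a Hopx-positive and 1348 TPM in a Hopx-negative cell, and the difference was negative on both i7 and both i5 sides. Sprr2a3, a cornified envelope protein with near-identical copies, was seen in 17 of 19 positive and 21 of 31 negative cells (difference 1.58), and Sfn, the stratifin gene, differed by 1.08, but by -0.73 on the upper i7 side and by -0.47 where 10 TPM of Hopx was asked for. Duoxa2, which matures the oxidase that makes hydrogen peroxide at the epithelial surface, was seen in 8 of 19 positive and 4 of 31 negative cells (difference 1.92). The Duoxa2 difference was 0.61 on the lower i7 side and 4.64 on the upper one. Reg3g, an antimicrobial lectin, was higher by 1.02, though its difference was -0.81 with Hopx at 10 TPM or more, and Lcn2, which binds bacterial siderophores, lower (difference -1.14). In the squamous list (6 measured) and the defence list (6 measured) alike, 2 members were higher and 1 lower by 1, beside 3.6% and 2.72% of all genes. Their medians were 0.58 and 0.60, beside 0.06 over all genes. Over the alternative settings these medians ran from 0.08 to 0.99 and from -0.62 to 1.26.

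Agr2, a disulfide isomerase of mucus-secreting cells, was seen in 12 of 19 positive cells (63.2%) and 13 of 31 negative cells (41.9%). Its values were 0, 37.7 and 289 TPM in Hopx-positive cells, against 0, 0.3 and 478 TPM in Hopx-negative cells, and the difference was 1.62. That difference was 3.22 in cells of i5 indexes N502 to N505 and 0.51 in those of N506 to N517, and 0.02 where 10 TPM of Hopx was asked for. Agr2 was the only one of 9 goblet cell genes measured in 20% of cells, and Muc2, the main goblet mucin, was seen in 0 of 19 positive and 1 of 31 negative cells. Among tuft cell genes, Avil, an actin regulator, was seen in 19 of 19 positive and 27 of 31 negative cells (difference 1.40), while Pou2f3 and Trpm5, which define that cell type, were below 1 TPM in all 50 cells. Avil overlaps Tsfm on the other strand, so its reads are uncertain. Defa24 was seen in 10 of 19 positive and 12 of 31 negative cells (difference 1.10), with a highest value of 596 TPM in Hopx-positive cells. Mmp7, of the same list of Paneth and deep crypt secretory genes, was seen in 18 of 19 positive and 30 of 31 negative cells. It went the other way, with a difference of -0.997, or -1.15 without the 3 cells with few genes. The list had 6 measured members, 4 of them above 0, and a median of 0.32 (0.63 without the 3 cells). Gkn3, a gastrokine, was seen in 9 of 19 positive and 13 of 31 negative cells.

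Markers of immune, endothelial, fibroblast and smooth muscle cells were summed in each cell. The summed level of 12 immune genes had a median of 135 TPM in Hopx-positive cells (0.57 to 300 TPM) and 107 TPM in Hopx-negative cells (0 to 473 TPM). Of these genes 3 were measured in 20% of cells: Cd14, the co-receptor for endotoxin, was seen in 15 of 19 positive and 22 of 31 negative cells (difference 1.24), Csf1r in 7 of 19 positive and 14 of 31 negative cells, and Cd68 in 3 of 19 positive and 7 of 31 negative cells. Whether cells other than epithelium add to the Cd14 difference was not tested; Ptprc, Tyrobp and Adgre1, which define leukocytes and macrophages, were below 1 TPM in all 50 cells. The sums over 6 endothelial genes reached 4.64 TPM in positive and 13.3 TPM in negative cells, and those over 8 fibroblast and smooth muscle genes reached 3.87 TPM in positive and 8.92 TPM in negative cells.

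In the remaining lists at most 1 member was past 1, beside 3.6% higher and 2.72% lower over all genes. Relb, an NF-kB subunit, was higher by 1.35 and was the only one of 9 measured NF-kB and chemokine genes past 1. Sesn2, a stress-induced p53 target, was lower (difference -1.08) and was the only one of 10 p53 targets past 1. Gsto1, a glutathione transferase, was higher by 1.21 (0.89 without the 3 cells with few genes), and Mt3, a metallothionein, was lower (difference -1.73). Ceacam1, an adhesion molecule of mature colonocytes, was higher by 1.24. It was 1 of 2 measured colonocyte genes, and the other, Car1, went the other way (difference -0.19, or -0.30 without the 3 cells). Of 11 listed colonocyte genes, 8 were seen in 0 cells. Of 12 oxidative phosphorylation genes 11 were above 0 with a median of 0.35, and of 12 glycolysis genes 10 with a median of 0.25. Over all genes 55.6% were above 0, with a median of 0.06. Without the 3 cells with few genes the medians of the oxidative phosphorylation and glycolysis lists were -0.01 and -0.02, beside -0.08 over all genes. Lists of Notch, YAP, EGF family, hypoxia, heat shock, interferon, immediate early, junction, ribosome biogenesis and housekeeping genes had 0 members past 1 with all cells; without the 3 cells, Dusp1 of the immediate early list and Dkc1 of the ribosome biogenesis list were past -1.

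Genes that lie near Hopx on chromosome 5 were looked at after the values were seen. Within 500 kb on either side the table held 13 other protein-coding genes, and their differences lay between -0.52 and 0.74. Srp72, a subunit of the signal recognition particle, was the highest, seen in 19 of 19 positive and 28 of 31 negative cells. Spink2, the nearest gene upstream, was listed at 0 in all cells, and Rest, a repressor of neuronal genes, was seen in 15 of 19 positive and 22 of 31 negative cells, with a difference of 0.07.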

How the data were processed

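Single-cell RNA-seq values were deposited by the authors as TPM for 24410 Ensembl gene IDs in 56 columns, each named by an index pair that 1 sample carries. The submitters' processing notes name RSEM 1.2.31 with Bowtie2 2.2.9, the build GRCm38.p4 and bcl2fastq 1.8.4. Their settings, the annotation and any strand setting were not stated in any source used here. No read depth survives in TPM, so the depth behind each value is unknown. Symbols came from GENCODE M21 names (24235 IDs matched, 175 without a symbol).

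In these columns, 6 pairs with Pearson's r of log2(TPM + 1) above 0.9 (0.957 to 0.992, next 0.782) were each averaged, giving 50 cells. All 6 averaged cells carried i7 index N709 and were Hopx-negative. A gene was seen at 1 TPM or more. Compared genes were seen in 20% of cells. For each, the mean of log2(TPM + 1), with a pseudocount of 1, in Hopx-negative cells was subtracted from that in Hopx-positive cells, and SDs are over cells. A difference understates the change of low genes. A size of 1 was counted, with no test. List members were seen in 20% of cells to count as measured; medians are over those members. Correlations are Spearman's rho.

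The members and the 38 gene lists were chosen with earlier results of these data known. Named genes were Hopx, the 12 highest and 12 lowest by difference per pooled SD among genes past 1 with the same sign in both i7 and both i5 sides, the 8 highest and 8 lowest by rho, extreme and frequent list members, and a fixed set of stem, sort and cycle genes; further members were named with their values known. The arithmetic of the comparison was checked by adding a known shift to shuffled values, which says nothing about the cells. The tools were numpy 2.4.6, SciPy 1.17.1, pandas 2.3.3 and matplotlib 3.10.9 in Python 3.11.15.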

Additional observations from a re-analysis of the deposited data

How the results depend on the processing

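The counts of genes past 1, 330 higher and 249 lower in the main setting, stayed close in some settings and moved in others. Hopx above 0 TPM as positive gave 377 higher and 223 lower, and each of the 56 libraries as a cell 293 and 232. Genes seen in 10% of cells gave 341 and 257, and adjusting for genes per cell 333 and 245. With Hopx at 10 TPM or more as positive there were 9 positive cells, 701 genes higher and 460 lower. A pseudocount of 0.1 gave 936 higher and 934 lower, and one of 10 gave 32 and 25. TPM rescaled without ribosomal protein genes and Gm10925 gave 454 higher and 383 lower. The i7 indexes N704 to N707 alone gave 550 higher and 521 lower, N708 to N710 alone 1192 and 800, the i5 indexes N502 to N505 alone 1011 and 702, and N506 to N517 alone 572 and 625; these settings hold fewer cells. Differences of medians gave 782 higher and 776 lower, and a size of 2 gave 14 and 10. Without the 3 cells with under 4500 genes, a setting chosen after seeing the data, 212 were higher and 461 lower; without only the cell with the fewest genes 263 and 333, and without only the cell with the highest Defa24 293 and 298. Leaving out the cells of each i7 index in turn gave 363 to 454 higher and 253 to 375 lower. Centring each cell on its median gene was also chosen after seeing the data. The cause of these shifts was not tested.

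Of the 24 genes named for their difference per pooled SD, which had to have the same sign on all index sides, 23 kept their sign in all 25 alternatives, and Abhd15 had a difference of medians of 0. Among genes past 1 with all cells, Acta2 (0.17) and Mcm2 (0.40) had the other sign in N708 to N710 alone, Sfn there (-0.73) and with Hopx at 10 TPM or more (-0.47), and Reg3g with Hopx at 10 TPM or more (-0.81). List medians near 0 changed sign in several settings, S phase in 5 and hypoxia in 13. Depth is unknown, so whether Hopx was missed in some cells listed at 0 cannot be told.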
